A study of Bos taurus with 10 samples.

Results

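The 9 S100 genes described here, S100a1, S100a3, S100a4, S100a6, S100a10, S100a11, S100a13, S100a16 and S100b, were taken by their symbols from a table of 21130 genes, and each had 1 row and 1 transcript accession. They encode small calcium-binding proteins that work as dimers, each chain carrying a pair of EF-hand loops. On binding calcium most of them expose a surface that grips partner proteins such as annexins and myosins, and some are also released from cells and act on surface receptors. In skeletal muscle the best-known member is S100A1, a regulator of calcium release, while S100B is a classical marker of glia. S100A4 (also called fibroblast-specific protein), S100A6, S100A10 and S100A11 are abundant in fibroblasts and other cells that spread and move.

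The labels describe RNA sequencing of muscle from 24-month-old cattle, with 7 libraries of genotype MSTN+/- (heterozygous at the myostatin gene) and 3 wild-type libraries. The design compares the muscle mRNA of these genotypes. How many animals stand behind the libraries, and how the allele was made, were not given in the sources used here, so the p-values measure the spread between libraries, which may be technical. Replicate numbers only name the libraries. Values are FPKM (fragments scaled by transcript length and library total), so levels of different genes can be set side by side.

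The contents of the table went against the labels in species and in tissue. All 9 S100 rows, and 19415 of the 21130 rows, are described as genes of Mus musculus, and 0 of 30319 transcript accessions occur in a RefSeq gene table of cattle. Of 15 skeletal muscle markers, 4 stayed below 1 FPKM in every library. The sum of the 15 was 26.3 to 56.8 FPKM among the MSTN+/- libraries and 39.5, 170 and 138 FPKM for wild-type replicates 1, 2 and 3. Most of the sum in replicates 2 and 3 came from Mylpf, at 155 and 125 FPKM. In both of these replicates 6 of the 15 exceeded the MSTN+/- range and 3 lay below it. The gene named in the genotype, Mstn, was listed at 0 in 7 of 10 libraries and reached at most 0.18 FPKM (MSTN+/- replicate 7), so it could not serve to check the genotype labels. The 3 wild-type libraries also differed from one another. The summed level of 14 fibroblast markers was 6928 FPKM in wild-type replicate 1 and 439 and 306 FPKM in replicates 2 and 3, against 3075 to 6278 FPKM among the MSTN+/- libraries. The groups are therefore the labelled ones, each wild-type library is given by its own value, and no difference is ascribed to the genotype. In bulk RNA, fewer cells of a type and less RNA per cell cannot be told apart.

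All 9 S100 genes had higher mean levels in the MSTN+/- libraries, but they did so in different ways. S100a1, S100a3, S100a13, S100a16 and S100b were low in all 3 wild-type libraries. S100a10 was lower in all 3 too, though less so in replicate 1. S100a4, S100a6 and S100a11 were low in wild-type replicates 2 and 3 only, and in replicate 1 they exceeded every MSTN+/- library. In limma, fitted on log2(FPKM + 1) over 14047 genes with Benjamini-Hochberg adjustment, 8 S100 genes were tested. S100a3 passed the filter only through the MSTN+/- libraries, where it is high, so its call carries no weight and it is left out of the counts. Of the other 7, 6 were higher at an adjusted p under 0.05 and 0 were lower, since all 7 log2 changes were positive. The background was high: 31.8% of all genes tested were called higher and 12.8% lower, and among the 13090 genes that reached 1 FPKM in a wild-type library these shares were 28.2% and 13.8%. Every MSTN+/- value lay above every wild-type value for 4 of the 7, against 25.2% of all genes tested and 21.4% of those 13090. The same held for S100a3 and S100b.

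**Figure D1:**
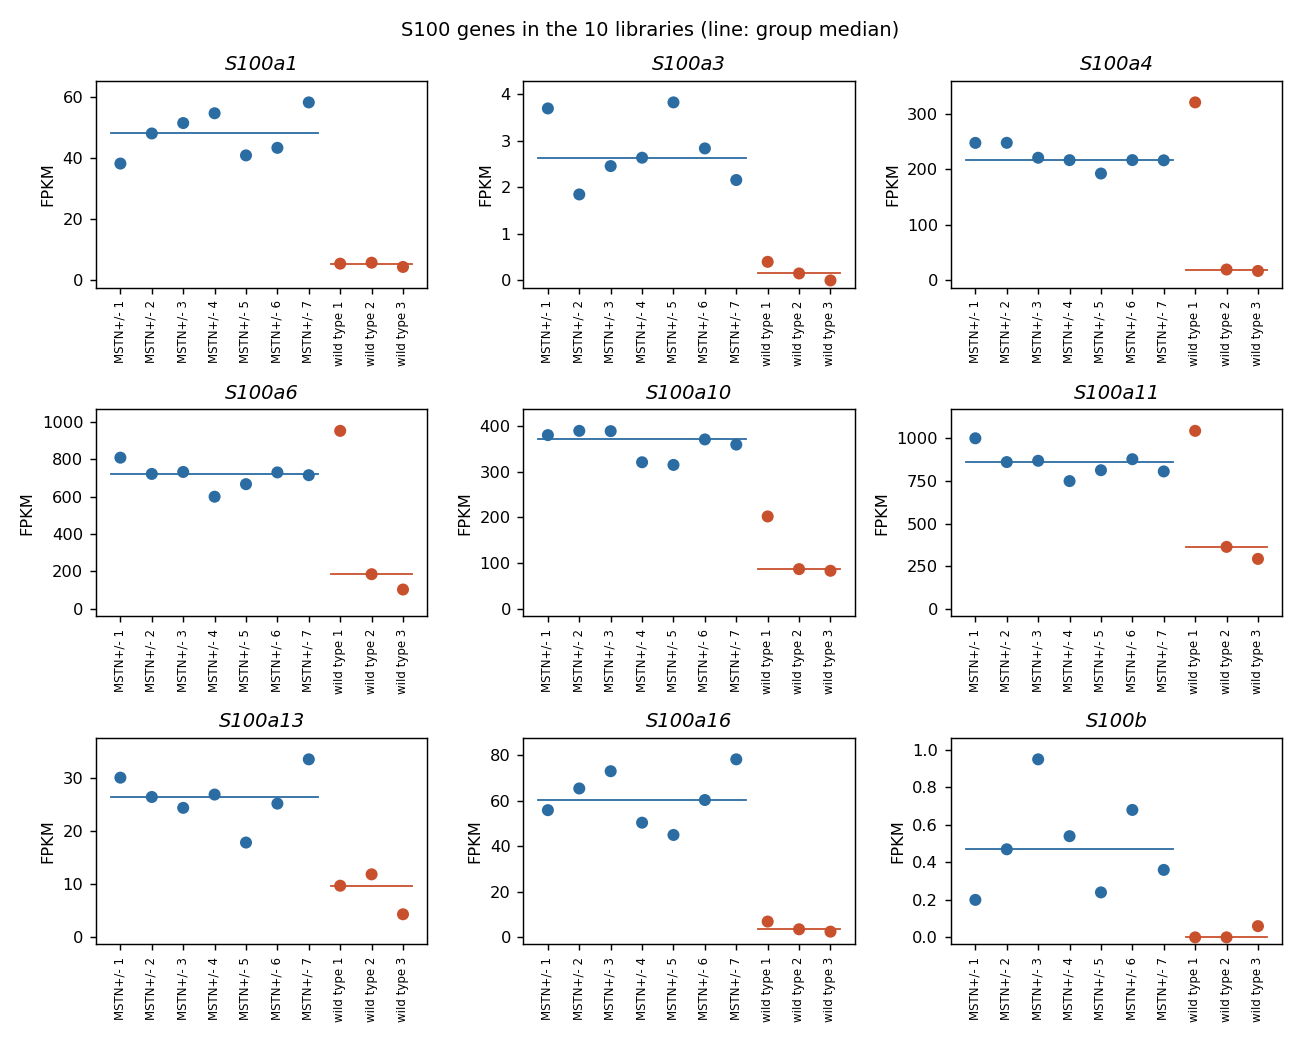
FPKM (vertical axes, linear, each panel on its own scale) of each S100 gene in the 7 MSTN+/- and 3 wild-type libraries; each point is 1 library and each line a group median. S100a4, S100a6 and S100a11 peak in wild-type replicate 1, at 320.55, 950.67 and 1044.53 FPKM, while S100a1 and S100a16 stay at or below 6.94 FPKM in each wild-type library.

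S100a11 (gene 20195), whose protein binds annexin A1 and takes part in membrane repair, was the most abundant member in all 10 libraries. Its level was 749.85 to 1000.97 FPKM among the MSTN+/- libraries, with a median of 861.37 FPKM. In wild-type replicates 1, 2 and 3 it was 1044.53, 363.86 and 293.32 FPKM. Wild-type replicate 1 was thus the highest of all libraries and the other two wild-type libraries the lowest. S100a11 missed the threshold, its log2 change being 0.82 ± 0.32 (SE, limma adjusted p = 0.0562). Without wild-type replicate 1 the change was 1.38 ± 0.11 (SE, limma adjusted p = 2.798e-06), and against that library alone it was -0.29 ± 0.14 (SE, limma adjusted p = 0.112).

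S100a6 (gene 20200), or calcyclin, is a marker of proliferating cells whose protein binds a partner named for it, the calcyclin-binding protein. It was second in every library. Its level ran from 599.12 to 807.59 FPKM among the MSTN+/- libraries, with a median of 720.68 FPKM. Wild-type replicate 1 had 950.67 FPKM, and replicates 2 and 3 had 185.27 and 103.4 FPKM. The groups overlapped for the same reason as with S100a11: 1 wild-type library lay above all others. The log2 change was 1.42 ± 0.52 (SE, limma adjusted p = 0.0457), a call lost when any 1 of the MSTN+/- libraries was left out (adjusted p of 0.0598 to 0.0744), without wild-type replicate 2 or 3 (0.174 and 0.240), or with no filter (0.0650).

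S100a4 (gene 20198) encodes a protein that binds non-muscle myosin IIA and is widely used as a fibroblast marker. Its level was 192.48 to 247.79 FPKM among the MSTN+/- libraries, with a median of 216.65 FPKM. The wild-type libraries had 320.55, 19.65 and 17.05 FPKM, an 18.8-fold range. Its mean in the 7 MSTN+/- libraries was 12.1 times the mean of wild-type replicates 2 and 3 and 0.694 times the level in replicate 1. The log2 change was 2.18 ± 0.72 (SE, limma adjusted p = 0.0327). That call was lost without MSTN+/- replicate 1, 2, 3, 6 or 7 (adjusted p of 0.0523 to 0.0545), without wild-type replicate 2 (0.163) and without wild-type replicate 3 (0.170).

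S100a10 (gene 20194), or p11, is the member that no longer responds to calcium, and a pair of its chains with a pair of annexin A2 chains forms a complex under the plasma membrane. The MSTN+/- libraries had 314.57 to 388.98 FPKM with a median of 370.26 FPKM, and the wild-type libraries 201.97, 86.91 and 83.28 FPKM. All 7 lay above all 3, and wild-type replicate 1 sat between the MSTN+/- range and the other wild-type libraries. The log2 change was 1.65 ± 0.24 (SE, limma adjusted p = 4.525e-04). Against wild-type replicate 1 alone it was 0.83 ± 0.13 (SE, limma adjusted p = 0.00120), and without that library 2.06 ± 0.10 (SE, limma adjusted p = 8.913e-08).

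S100a16 (gene 67860) is a broadly expressed member that weakly binds calcium, and its level had the widest range over libraries on the log2 scale. It was at 44.95 to 78.15 FPKM among the MSTN+/- libraries, with a median of 60.29 FPKM. The wild-type libraries had 6.94, 3.55 and 2.51 FPKM, all far below the MSTN+/- range. Its log2 change of 3.61 ± 0.25 (SE, limma adjusted p = 2.994e-06) was the largest among the S100 genes tested.

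S100a1 (gene 20193), the member known for binding the ryanodine receptor of muscle, was at 38.13 to 58.09 FPKM among the MSTN+/- libraries, with a median of 47.95 FPKM. The wild-type libraries had 5.47, 5.79 and 4.4 FPKM. These 3 values differed by 1.32-fold, the smallest wild-type range of the 7 S100 genes above 0 in all libraries. The log2 change was 2.96 ± 0.15 (SE, limma adjusted p = 3.502e-07), and it was 2.90 ± 0.21 (SE, limma adjusted p = 9.695e-06) against wild-type replicate 1 alone. The ryanodine receptor gene of skeletal muscle, Ryr1, was near its floor, at 0.1 to 0.39 FPKM among the MSTN+/- libraries and 0.06, 1.89 and 1.58 FPKM among the wild-type ones.

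S100a13 (gene 20196) takes part in the release of fibroblast growth factor 1 and interleukin 1 alpha, which lack a signal peptide. The MSTN+/- libraries had 17.9 to 33.61 FPKM with a median of 26.5 FPKM, and the wild-type libraries 9.75, 11.9 and 4.36 FPKM. The groups did not overlap, and here wild-type replicate 2 was the highest of its group. The log2 change was 1.58 ± 0.26 (SE, limma adjusted p = 0.00102).

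S100a3 (gene 20197), a cysteine-rich zinc-binding member known from the hair cuticle, was low everywhere. It had 1.85 to 3.83 FPKM among the MSTN+/- libraries, with a median of 2.64 FPKM, and 0.4 and 0.15 FPKM for wild-type replicates 1 and 2. It was listed at 0 in replicate 3. It reached 1 FPKM in the 7 MSTN+/- libraries only, so it was tested only because of the group in which it was high. Its log2 change was 1.67, a size that depends on the pseudocount: with 0.1 in place of 1 it was 3.59.

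S100b (gene 20203) did not pass the filter on low values, as it stayed below 1 FPKM in all 10 libraries. It had 0.2 to 0.95 FPKM among the MSTN+/- libraries, with a median of 0.47 FPKM. In the wild-type libraries it was listed at 0 in replicates 1 and 2 and was at 0.06 FPKM in replicate 3. The values do not overlap, but they are close to the lower limit of the table. Of 12 glia and melanocyte markers, 4 stayed below 1 FPKM in all libraries, among them the melanocyte gene Dct. The myelin basic protein gene Mbp was at 13.1 to 18.9 FPKM among the MSTN+/- libraries and at 1.95, 1.7 and 1.92 FPKM among the wild-type ones. Erbb3, of the same list, was at 2.1 to 5.33 FPKM against 0.14, 14.05 and 8.67 FPKM. In both wild-type replicates 2 and 3, 3 of the 12 exceeded the MSTN+/- range and 5 lay below it. The summed level of the list was 27.3 to 39.7 FPKM, and 4.19, 32.1 and 21.7 FPKM for wild-type replicates 1, 2 and 3. Its part in the S100b values was not tested.

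**Figure D2:**
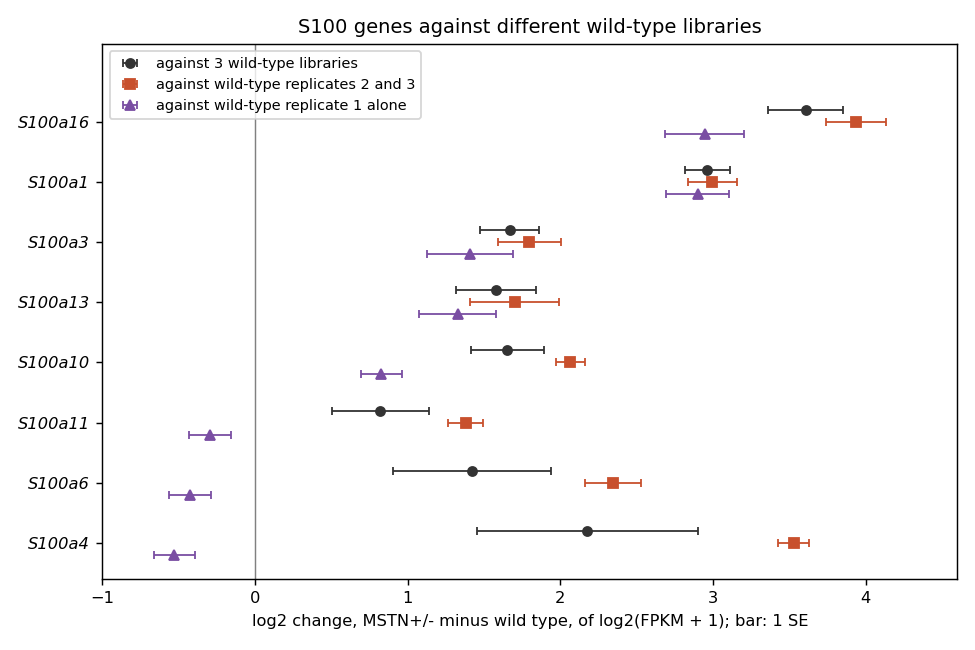
Change in log2(FPKM + 1), MSTN+/- minus wild type (horizontal axis; bars show 1 SE from limma), of the 8 S100 genes tested, against all 3 wild-type libraries, against replicates 2 and 3, and against replicate 1 alone. S100a1 stays between 2.90 and 2.99 in the 3 comparisons, while S100a4 moves from 3.53 to -0.53.

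The calls of the abundant members depended on which wild-type libraries were used. Without wild-type replicate 1, all 7 S100 genes other than S100a3 were higher, where 42.2% of all genes were called higher and 31.9% lower. The log2 change of S100a4 was then 3.53 ± 0.10 (SE, limma adjusted p = 7.123e-09) and that of S100a6 2.34 ± 0.18 (SE, limma adjusted p = 1.912e-06). Against wild-type replicate 1 alone, a fit that assumes this library varies like the 7 MSTN+/- ones, 4 of them were higher and 2 lower. In that fit 33.7% of all genes were called higher and 10.8% lower. The lower ones were S100a4, whose log2 change was -0.53 ± 0.13 (SE, limma adjusted p = 0.0111), and S100a6, for which it was -0.43 ± 0.14 (SE, limma adjusted p = 0.0341). The 3 comparisons share their MSTN+/- libraries. S100a1, S100a10, S100a13 and S100a16 were higher in each of the 3.

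Scaling moved the levels of all genes. The median log2 change of all genes tested was 0.17 with the deposited values, 0.14 when rescaled to TPM, -0.0044 with median-of-ratios factors and -0.10 with quantile normalization. The median of the 7 S100 genes other than S100a3 was 1.65, 1.60, 1.44 and 1.68 in the same order. Calls in the higher direction made up 71.3%, 63.8%, 50.3% and 42.7% of all calls. No S100 gene changed direction under these scalings, but S100a6 missed the threshold under all 3 (adjusted p of 0.0634, 0.0932 and 0.0788), and S100a4 missed it with median-of-ratios scaling (0.0546).

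The order of the levels was almost fixed in the MSTN+/- libraries. From the highest mean down it was S100a11, S100a6, S100a10, S100a4, S100a16, S100a1, S100a13, S100a3 and S100b. Only S100a11 with S100a6 and S100a16 with S100a1 had overlapping ranges, and the order of the latter pair held in 6 of 7 libraries. S100a11 lay above S100a6 within each of the 7. In wild-type replicate 1, S100a4 stood above S100a10, at 320.55 against 201.97 FPKM, and in wild-type replicates 2 and 3 S100a10 was the higher one, by more than 4-fold. S100a13 overtook both S100a1 and S100a16 in wild-type replicates 1 and 2. Among all 21130 rows, S100a11 held rank 72 to 84 in the MSTN+/- libraries and rank 34, 158 and 198 in the wild-type libraries. S100a16 held rank 911 to 1735 in the MSTN+/- libraries and rank 7405, 9702 and 10397 in the wild-type libraries.

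Together the 9 genes held 0.452% to 0.561% of the total FPKM of the MSTN+/- libraries. In the wild-type libraries they held 0.631%, 0.149% and 0.112%. S100a11, S100a6, S100a10 and S100a4 made up 92.4% to 95.0% of that sum in the MSTN+/- libraries and 99.1%, 96.8% and 97.8% in the wild-type libraries. Wild-type replicate 1 therefore had the highest S100 share of its total FPKM. Within that S100 sum the other 5 genes made up a smaller part than in any other library. In FPKM the sum was highest in MSTN+/- replicate 1, at 2564 against 2540 FPKM. The spread among the 7 MSTN+/- libraries was narrow for the abundant members, with a coefficient of variation of 8.61% for S100a10 to 9.22% for S100a11. It was 15.5% to 19.5% for S100a1, S100a13 and S100a16, 26.7% for S100a3 and 53.5% for S100b, and the median over 9661 tested genes with a mean of at least 5 FPKM in these libraries was 10.7%.

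**Figure D3:**
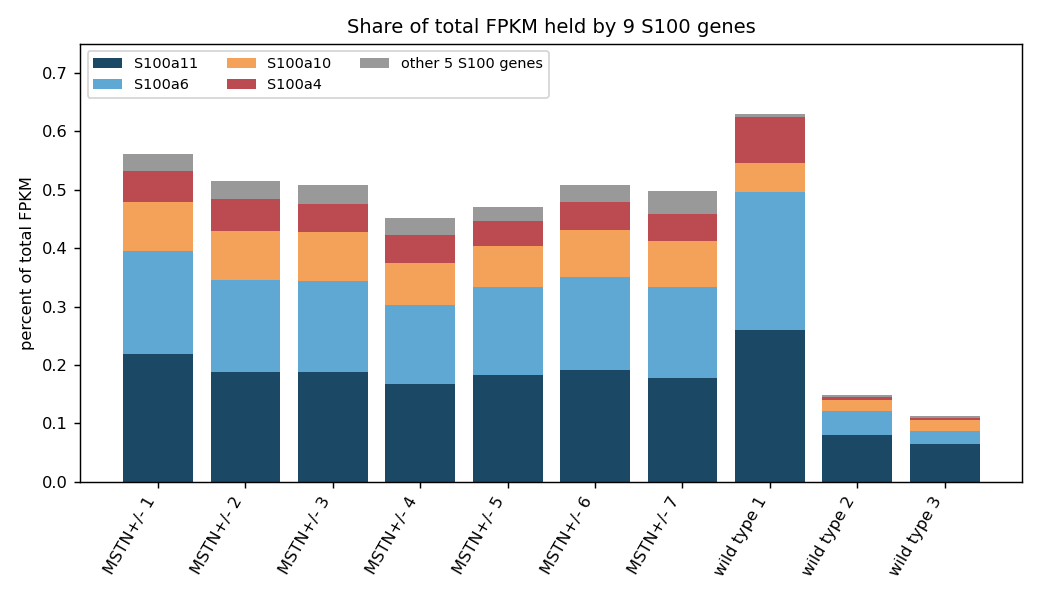
Percent of the total FPKM of each library (vertical axis) held by the 9 S100 genes, stacked by gene; each bar is 1 library. The bars reach 0.452% to 0.561% in the MSTN+/- libraries, 0.631% in wild-type replicate 1, and 0.149% and 0.112% in replicates 2 and 3.

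The genes also carry annotations and have neighbours that can be set beside their levels. All 9 are annotated in the deposited table with metal ion binding (transition metals included), which follows from their choice as calcium-binding protein genes. Of them, 7 are annotated with identical protein binding, and 3 (S100a6, S100a13 and S100b) with transition metal binding. S100a4, S100a13 and S100b carry the annotation of the NF-kappaB cascade. In the cattle gene table (assembly ARS-UCD2.0), used here only for neighbours by name, S100A1, S100A13, S100A14 and S100A16 follow one another, then come S100A2, S100A3, S100A4 and S100A5, and S100A11 and S100A10 adjoin each other elsewhere. The run from S100a1 to S100a16 holds genes with every MSTN+/- value above every wild-type value. The same held for S100a3, S100a10 and S100b outside the run, and for 25.2% of all genes tested. S100a14, in the run, passed the filter only through the MSTN+/- libraries. S100a3 and S100a4 are neighbours with different patterns, and so are S100a11 and S100a10 in wild-type replicate 1. Whether the authors' counting used the strand is not given in the sources used here, so reads from any overlap between such neighbours cannot be told apart.

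Other members of the family were rare. Of 11 further S100 symbols 7 were found, and 4 of the 7 stayed below 1 FPKM in every library. S100a8 and S100a9, the calgranulins that fill neutrophils, reached at most 0.28 and 0.2 FPKM. Of the remaining ones 2 were tested, both only because of the MSTN+/- libraries in which they are high, so their values are given with no test. S100a14, an epithelial member, had 2.08 to 6.56 FPKM among the MSTN+/- libraries and 0, 0.33 and 0.28 FPKM among the wild-type ones. S100g, calbindin D9k of the intestine and uterus, had 0.98 to 5.51 FPKM and was at 0 in each wild-type library, and both genes fell out under a filter on a mean of at least 5 FPKM. Of 6 fused S100 genes found, large proteins of the cornified skin, 1 was tested, the hair follicle gene Tchh, and it did not pass (limma adjusted p = 0.972) except with quantile normalization, where it was lower (log2 change -0.67, limma adjusted p = 0.00801).

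The annexins, calcium-dependent membrane binders that pair with S100 proteins, also differed among themselves in wild-type replicate 1. Of 10 tested, limma called 7 higher and 0 lower (0 also at an unadjusted p under 0.05), beside 31.8% and 12.8% of all genes, with a median log2 change of 1.37 beside 0.17. Anxa9, among the 7, passed the filter only through the MSTN+/- libraries, so its call carries no weight. Without Anxa9, 6 of 9 were higher, against 28.2% of all genes that reached 1 FPKM in a wild-type library. The median log2 changes were then 1.49 and 0.11. Counts under the alternatives below are over all 10 annexins. Anxa8 had 117 to 166 FPKM among the MSTN+/- libraries and 14.6, 12.5 and 4.79 FPKM among the wild-type ones, and the log2 change was 3.72 (limma adjusted p = 4.45e-06). Anxa7 had 55.0 to 61.2 FPKM against 37.1, 47.5 and 36.3 FPKM, and Anxa4 39.8 to 47.5 FPKM against 37.1, 12.5 and 13.5 FPKM, and their log2 changes were 0.53 and 1.25 (limma adjusted p = 0.00229 and 0.00440). The change of Anxa4 was 0.29 when only wild-type replicate 1 was used, and it missed the threshold (limma adjusted p = 0.0555). The 3 that did not pass were Anxa3, Anxa5 and Anxa11, of which Anxa3 and Anxa5 peaked in wild-type replicate 1, at 101 and 339 FPKM. Anxa11 went the other way, at 35.2 to 48.6 FPKM among the MSTN+/- libraries and 20.9, 78.0 and 74.3 FPKM among the wild-type ones. Against wild-type replicate 1 alone 3 annexins were higher and 3 lower (33.7% and 10.8% of all genes), and without it 9 were higher and 1 lower (42.2% and 31.9% of all genes). The higher count was 4 with median-of-ratios scaling, where 23.2% of all genes were called higher, and also without wild-type replicate 2 or 3, where 25.2% and 24.8% were.

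Anxa2 and Anxa1, named after their values were seen because they are the partners of S100A10 and S100A11, were themselves abundant. Anxa2 had 707 to 882 FPKM among the MSTN+/- libraries and 625, 87.3 and 59.1 FPKM among the wild-type ones, and the log2 change was 2.42 (limma adjusted p = 0.00652), a call that was lost against wild-type replicate 1 alone (adjusted p of 0.0549). Its partner S100a10 thus stood at 0.370 to 0.508 times the Anxa2 level in the MSTN+/- libraries, at 0.323 times in wild-type replicate 1, and at 0.995 and 1.41 times in replicates 2 and 3. Anxa1 had 196 to 286 FPKM against 345, 50.1 and 25.2 FPKM, and the log2 change was 1.65 (limma adjusted p = 0.0474), a call that was lost without any 1 MSTN+/- library (adjusted p of 0.0613 to 0.0765), without wild-type replicate 2 or 3 (0.179 and 0.249), with no filter (0.0655) and under median-of-ratios, TPM and quantile scaling (0.0876, 0.0631 and 0.0510). Against wild-type replicate 1 alone Anxa1 was lower (log2 change -0.51, limma adjusted p = 0.0452). The ratio of S100a11 to Anxa1 was 2.85 to 3.82 in the MSTN+/- libraries, 3.03 in wild-type replicate 1, and 7.27 and 11.6 in replicates 2 and 3. In both pairs the S100 level was higher relative to its annexin in wild-type replicates 2 and 3 than in any other library.

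**Figure D4:**
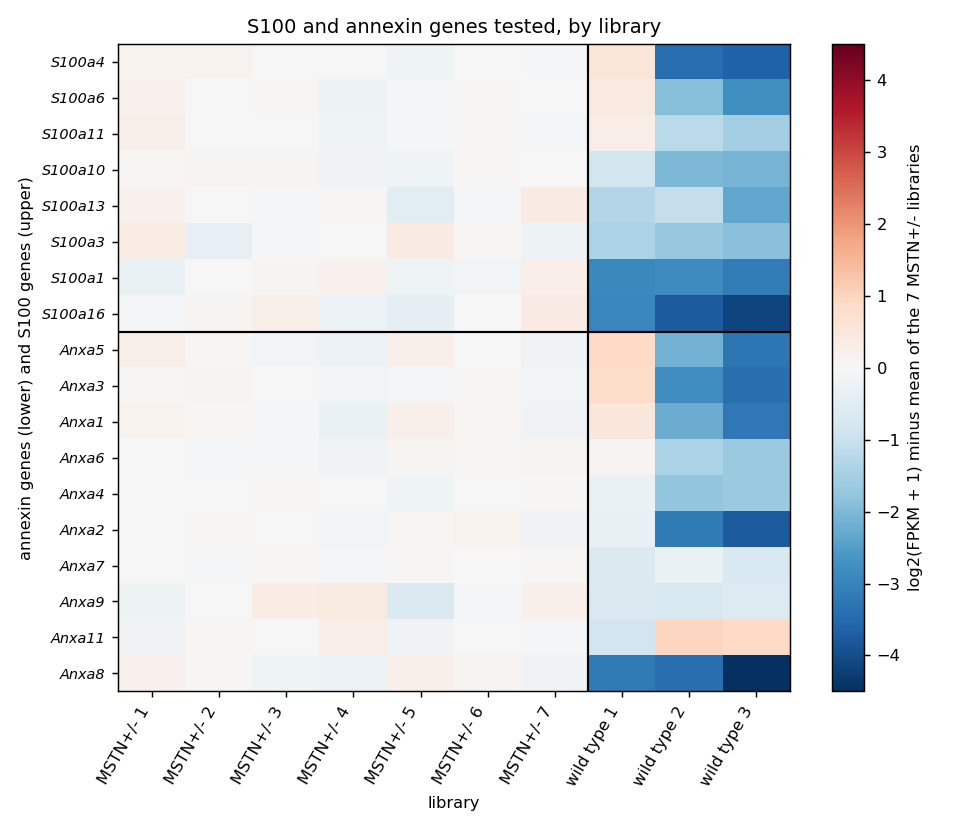
Heat map of log2(FPKM + 1) minus the mean of the 7 MSTN+/- libraries (colour) for the 8 S100 genes (upper rows) and 10 annexin genes (lower rows) tested, by library (columns). S100a4, S100a6, S100a11, Anxa1, Anxa3, Anxa5 and Anxa6 are above the MSTN+/- mean in wild-type replicate 1 and below it in replicates 2 and 3. S100a1, S100a16 and Anxa8 are below it in all 3.

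Of 14 tested genes of other protein partners, 4 were called higher, 4 lower and 6 did not pass, with a median log2 change of -0.17. The share called higher is near the 31.8% of all genes, and 12.8% of all genes were called lower. Of the 4 higher ones, Syt1 and Fgf1, whose proteins meet S100A13 in growth factor release, passed the filter only through the MSTN+/- libraries and are given with no test. Without them 2 of 12 were higher, against 28.2% of all genes that reached 1 FPKM in a wild-type library. The 2 were the plasminogen receptor gene Plgrkt, and Ahnak, the scaffold bound by the S100A10 and annexin A2 complex. Syt1 had 2.60 to 4.19 FPKM among the MSTN+/- libraries and 0.17, 0 and 0.02 FPKM among the wild-type ones. Fgf1 was at 0.67 to 1.72 FPKM against 0.07, 0.36 and 0.11 FPKM. Ahnak had 108 to 123 FPKM against 132, 20.3 and 23.1 FPKM and missed the threshold without wild-type replicate 2 or 3 (adjusted p of 0.116 and 0.112). The lower ones were Dlc1, whose protein binds S100A10, the co-chaperone gene Sugt1, the phosphatase gene Ppp5c and the tumour suppressor gene Trp53. Dlc1 had 12.3 to 17.9 FPKM against 32.5, 34.2 and 33.2 FPKM, and the log2 change was -1.16 (limma adjusted p = 3.67e-05), or -1.12 against wild-type replicate 1 alone. Sugt1, Ppp5c and Trp53 missed the threshold against that library alone (adjusted p of 0.251, 0.848 and 0.813), and Trp53 also without any 1 of the 7 MSTN+/- libraries (0.0555 to 0.0649), without wild-type replicate 2 or 3, and with no filter. Ppp5c also missed the threshold without any 1 of MSTN+/- replicates 1, 3, 4 and 6 (limma adjusted p of 0.0521 to 0.0573). It did so without wild-type replicate 2 or 3 as well (0.1755 and 0.1467). The lower count was 2 without any 1 of MSTN+/- replicates 1, 3, 4 and 6, where 9.91%, 10.4%, 12.1% and 9.94% of all genes were called lower, and without wild-type replicate 2, where 5.71% were.

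Of 6 genes of surface receptors for released S100 proteins, 4 were called higher and 1 lower, beside 31.8% and 12.8% of all genes. Ager and Cd36, which count among the 4, passed the filter only through the MSTN+/- libraries and are given with no test. Without them 2 of 4 were higher, against 28.2% of all genes so restricted. Ager, the receptor for advanced glycation end products and best known of them, had 2.18 to 3.89 FPKM among the MSTN+/- libraries and 0.49, 0.74 and 0.58 FPKM among the wild-type ones. The scavenger receptor gene Cd36 had 1.59 to 3.23 FPKM against 0.29, 0.17 and 0.09 FPKM. The endotoxin receptor gene Tlr4 had 1.49 to 2.06 FPKM against 1.31, 0.65 and 0.25 FPKM, and Bsg, which encodes basigin, 311 to 596 FPKM against 292, 220 and 253 FPKM. Both missed the threshold against wild-type replicate 1 alone (limma adjusted p = 0.314 and 0.272) and without wild-type replicate 3 (0.0556 and 0.0774). Tlr4 also missed it with quantile normalization (0.842), and Bsg with median-of-ratios scaling (0.111), with library weights (0.160) and without wild-type replicate 2 (0.116). The lower one was Emb, which encodes embigin, at 3.47 to 18.8 FPKM against 10.1, 57.1 and 99.5 FPKM. Its call was lost without any 1 of MSTN+/- replicates 1, 5, 6 and 7, without wild-type replicate 2 or 3, and against wild-type replicate 1 alone.

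Among 25 tested genes of other EF-hand proteins, limma called 15 higher and 0 lower (0 also at an unadjusted p under 0.05), beside 31.8% and 12.8% of all genes, with a median log2 change of 0.84. Without Calb2, which passed the filter only through the MSTN+/- libraries and is given with no test, 14 of 24 were higher, against 28.2% of all genes so restricted. Calb2, which encodes the calcium buffer calretinin, had 1.37 to 3.40 FPKM among the MSTN+/- libraries and 0, 0.21 and 0.14 FPKM among the wild-type ones. The calpain small subunit gene Capns1 had 304 to 326 FPKM against 220, 182 and 187 FPKM (log2 change 0.68, limma adjusted p = 2.01e-04), and Pef1, of the same penta-EF-hand family, 39.5 to 47.0 FPKM against 27.6, 22.5 and 18.1 FPKM (log2 change 0.91, limma adjusted p = 2.86e-04). Counts under the alternatives below are over all 25 genes, Calb2 among them. The higher count was 8 with median-of-ratios scaling (23.2% of all genes), 6 and 8 without wild-type replicate 2 or 3 (25.2% and 24.8%), and 9, with 4 lower, against wild-type replicate 1 alone (33.7% and 10.8%). Without wild-type replicate 1, 21 were higher and 2 lower (42.2% and 31.9%).

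The genes whose profiles over the 10 libraries lay closest to a member were found for the 3 members with the widest range. Likeness was the root mean square difference between log2(FPKM + 1) values centred on each gene's mean, over 9563 genes that carry a symbol and average at least 5 FPKM. The nearest genes were picked for this likeness, so the patterns they share with a member follow from the choice. For S100a16 they were Tril (0.23), Myc (0.24) and Clic3 (0.25), each below its MSTN+/- range in all 3 wild-type libraries, as with Myc at 251 to 379 FPKM against 43.2, 25.1 and 22.0 FPKM. For S100a1 they were Bmp6 (0.20), Crip1 (0.21) and Sybu (0.21), among them Crip1 at 150 to 227 FPKM against 19.0, 21.2 and 17.3 FPKM. Tril, Clic3, Bmp6 and Sybu had at most 1.64 FPKM in any wild-type library, so they met the limit on the mean only through the MSTN+/- libraries. For S100a4 they were Ptrf (0.21), Anxa3 (0.22) and Ddr2 (0.24), which like it were abundant in wild-type replicate 1. Ptrf, which encodes a coat protein of caveolae, had 202 to 236 FPKM among the MSTN+/- libraries and 233, 24.8 and 18.8 FPKM among the wild-type ones.

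Some markers of other cell types varied over the libraries as S100a4, S100a6 and S100a11 did, and others ran the opposite way. The summed level of 14 fibroblast markers, given above, was highest in wild-type replicate 1 and lowest in replicates 2 and 3, as were S100a4, S100a6 and S100a11. The sum is led by Col1a1 and Col1a2. In wild-type replicate 1, 9 of the 14 lay above every MSTN+/- library and 2, Dcn and Lum, below every one, at 24.3 and 28.8 FPKM against 169 to 324 and 45.2 to 99.9 FPKM. In wild-type replicates 2 and 3 all 14 were below. Of the 14, 5 were called higher in the comparison of all libraries, near the 31.8% of all genes, 14 without wild-type replicate 1 (42.2% of all genes), and 2 higher and 7 lower against that library alone (33.7% and 10.8%). The sum of 14 pluripotent cell markers ran the other way, at 926 to 1632 FPKM among the MSTN+/- libraries and 25.9, 3088 and 3470 FPKM for wild-type replicates 1, 2 and 3. Its members disagreed: 12 of 14 exceeded the MSTN+/- range in replicates 2 and 3, while Pou5f1 was at 633 to 848 FPKM among the MSTN+/- libraries and below that in all 3 wild-type libraries, at 0.38, 346 and 533 FPKM, and Sox2 was at 212 to 357 FPKM against 0.52, 224 and 202 FPKM. Smooth muscle markers summed to 211 to 382 FPKM among the MSTN+/- libraries and to 2523, 68.3 and 46.8 FPKM among the wild-type ones, led in replicate 1 by the actin gene Acta2 at 1402 FPKM. All 7 of them lay above the MSTN+/- range in wild-type replicate 1. In both replicates 2 and 3 only 3 of the 7 were below it. There 1 was above it, Cnn1, at 1.62 and 3.06 FPKM against 0.95 to 1.5 FPKM. The epithelial sum was 120 to 283 FPKM, and 34.4, 337 and 607 FPKM among the wild-type ones. Here 5 of 10 members, among them Cdh1, Epcam and Cldn4, exceeded the MSTN+/- range in replicates 2 and 3, and 4 keratin genes were below it, such as Krt14, at 7.42 to 24.2 FPKM against 0 in each wild-type library. Their part in the S100 levels was not tested. Neutrophil markers summed to at most 4.25 FPKM in any library, macrophage markers to 25.2 FPKM, endothelial markers to 29.2 FPKM and chondrocyte markers to 28.2 FPKM. In wild-type replicate 1, where the fibroblast sum was highest, S100a1, S100a3, S100a10, S100a13, S100a16 and S100b were below every MSTN+/- library, as Dcn and Lum were.

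**Figure D5:**
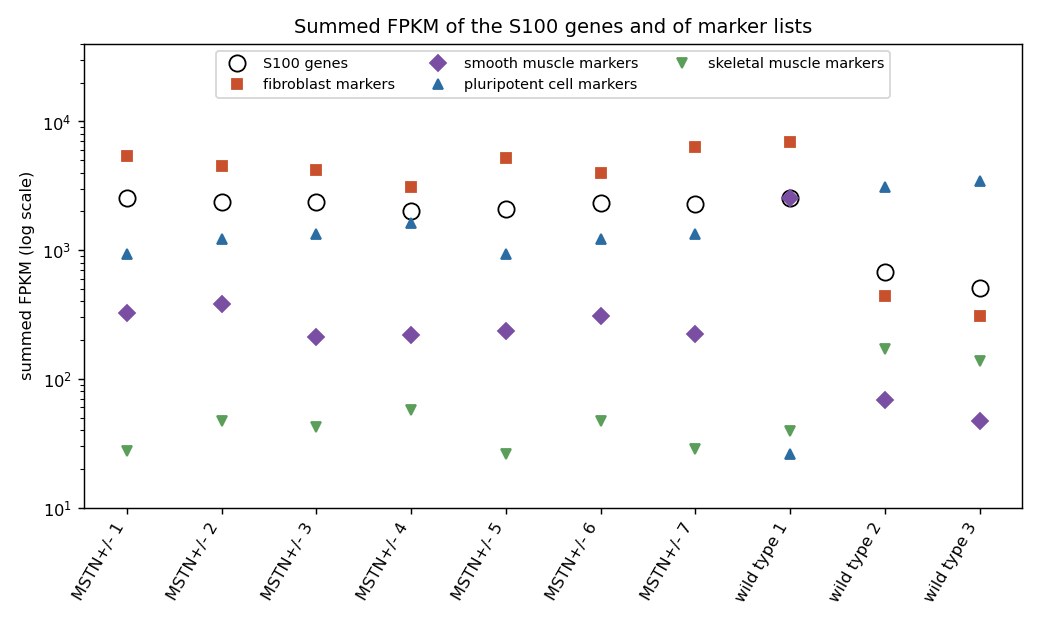
Summed FPKM (vertical axis, log scale) of the 9 S100 genes and of 4 marker lists in each library (1 point per list and library). The S100 sum is 2540 FPKM in wild-type replicate 1 and 677 and 508 FPKM in replicates 2 and 3, and the fibroblast sum falls from 6928 to 439 and 306 FPKM across the same libraries.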

How the data were processed

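The authors deposited FPKM values, 1 for each gene in each library, per the file headers. Their alignment, counting and genome build were not given in the sources used here. Columns were tied to libraries by the library title, and 0 value columns were left unused. Total depth is unknown. Relative depth was estimated from single-transcript genes at 0 in 4 or more libraries, whose smallest value was taken as 1 fragment, and ran from 1 in MSTN+/- replicate 1 to 1.20 in wild-type replicate 1, over 30 to 56 genes shared with that replicate. The estimate was searched only near equal depth.

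The test was limma 3.58.1 under R 4.3.3, with a trended prior, applied to log2(FPKM + 1). It covered the 14047 genes that reached 1 FPKM in 3 or more libraries, used no covariate and left 8 residual degrees of freedom. Changes on this scale understate those of low genes. The Benjamini-Hochberg adjustment ran over all genes tested, with a threshold of 0.05. The S100 genes, 16 gene lists, tests and alternatives were chosen with earlier results of these data known. Named genes are the 9 S100 genes, up to 3 called genes of smallest p per list of relatives and direction, those needed to state a count of 5 or fewer, and the 3 nearest profiles of 3 members. On simulated data for this comparison and 14047 genes, 56% of 50 genes changed by 1 on the log2 scale were recovered, and 92%, 98% and 94% of those changed by 2, 3 and 4. These rates were not broken down by level or by spread within a group. They may not hold for low genes, or where the wild-type libraries are split. S100a4 had an SD of 174 FPKM among the wild-type libraries and 19.5 FPKM among the MSTN+/- ones, and S100a6 of 467 and 64.1 FPKM. Alternatives were 3 scalings, a pseudocount of 0.1, 2 filters, robust empirical Bayes, library weights (whose iteration stopped before its tolerance was reached), each library left out in turn, and wild-type replicate 1 alone. Figures were drawn with matplotlib 3.10.9.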

Additional observations from a re-analysis of the deposited data

How the results depend on the processing

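S100a1, S100a10, S100a13 and S100a16 were higher, past the threshold, under all 19 alternatives. S100a6 kept its direction but missed the threshold under 13 alternatives, S100a4 under 8, and S100a11 passed under 2, library weights and without wild-type replicate 1. Without S100a3, 6 of 7 S100 genes were called higher, beside 31.8% of all genes. That count ran from 4 to 7 when single libraries were left out. It was 7 without wild-type replicate 1 (42.2% of all genes) and 4 without wild-type replicate 2 or 3 (25.2% and 24.8%). With median-of-ratios scaling it was 4 (23.2%). S100b was tested only with no filter (log2 change 0.53, limma adjusted p = 0.0164). Against wild-type replicate 1 alone, 2 S100 genes were called lower in place of 0, and log2 changes turned sign for S100a4 (-0.53), S100a6 (-0.43), S100a11 (-0.29), Ptrf (-0.086), Anxa3 (-0.84), Ddr2 (-0.38), Anxa1 (-0.51), Anxa5 (-0.90), Ahnak (-0.17), Anxa11 (0.87) and Trp53 (0.070). The cause was not tested. Of all genes, 4468 were called higher and 1800 lower. The higher count was 2874 with quantile normalization, and the lower count was 3851 there, 3230 with median-of-ratios scaling and 3368 with library weights. With single libraries left out the lower count ran from 791 (without wild-type replicate 3) over 793 (without replicate 2) to 4449 (without replicate 1). The share of higher calls is given with the scalings above. No paired analysis was possible because the replicate numbers do not come from the labels. FPKM values without counts limit the precision of S100a3, S100b, S100a14 and S100g most.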

Other observations

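Ratios between S100 genes within a library are not altered by a single factor per library, as in TPM or median-of-ratios scaling. Quantile normalization can alter them, and the ratios here use the deposited values. S100a6 stood at 0.799 to 0.885 times the level of S100a11 in the MSTN+/- libraries. It stood at 0.910 times in wild-type replicate 1, and at 0.509 and 0.353 times in wild-type replicates 2 and 3. S100a4 stood at 0.289 to 0.361 times the level of S100a6 in the MSTN+/- libraries and at 0.337 times in wild-type replicate 1, within that range, against 0.106 and 0.165 times in replicates 2 and 3. S100a10 stood at 0.379 to 0.452 times the level of S100a11 in the MSTN+/- libraries and lower in all 3 wild-type libraries, at 0.193, 0.239 and 0.284 times. S100a16 exceeded S100a1 in wild-type replicate 1 (1.27 times) and in 6 of 7 MSTN+/- libraries (0.923 to 1.46 times over the 7), and was at 0.613 and 0.570 times its level in wild-type replicates 2 and 3. These ratios are descriptions and were not tested. No value of an S100 gene in the 7 MSTN+/- libraries stood apart from the rest by Dixon's criterion; groups of 3 were not examined.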
